A study of Mus musculus with 8 samples.

Results

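The comparison described here sets enteroendocrine cells of the stomach against those of the colon. Its members are 3 gastric and 2 colonic arrays, 5 of the 8 arrays of the series, chosen by their sample titles alone, and all 18131 gene rows of the deposited table were used. The gastric cells came from the antral part of the stomach, next to the pylorus, and the colonic cells from the colon of adult Ngn3-GFP mice. In these mice green fluorescent protein (GFP) reports Neurog3 (Ngn3) activity, so the GFP-positive cells taken by flow cytometry are those in which this gene is or recently was active. All groups carry this reporter, no group was treated, and strain, sex and the number of animals are not given in the sources used here. Antral tissue was dissociated with a longer EDTA step and Accutase, and colonic tissue with a shorter EDTA step and dispase, so segment and dissociation cannot be told apart. The other 3 arrays, of duodenal cells, entered the statistical fit and are used below only to place a level between stomach and colon.

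Enteroendocrine cells are scattered single cells of the gut lining that store hormones in dense granules and release them when they sense nutrients, acid, microbial products or nerve signals. They descend from epithelial stem cells through a short-lived stage that makes Neurog3, and the hormones they go on to make depend on where along the gut they lie. The antrum is known for G cells that make gastrin, D cells that make somatostatin and cells that make ghrelin or serotonin. The colon is known for L cells, which make glucagon-like peptides, peptide YY and insulin-like peptide 5, and for cells that make serotonin.

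Values are log2 expression values of Illumina bead arrays, so a difference of 1 is 2-fold. Of the 18131 rows, 7993 (44.1%) passed limma's moderated test for a gastric against colonic difference at a Benjamini-Hochberg adjusted p under 0.05. Of these, 3668 (20.2% of all rows) were higher and 4325 (23.9%) lower in gastric cells. At least 2-fold differences were found for 730 rows (4.03%) that were higher and 614 (3.39%) that were lower, and 59.3% of all rows had gastric and colonic arrays that did not overlap. Gastric and colonic arrays correlated at 0.9011 to 0.9023 across rows, against 0.9979 to 0.998 between gastric arrays and 0.9978 between the colonic arrays. A row with a group mean under 6.81 is called at background here, a level set by the 95th percentile of olfactory receptor rows, and a ratio against such a group is given as at least N-fold. The median standard deviation over rows was 0.054 among gastric and 0.046 among colonic arrays, and since separate animals are not stated for the arrays, p-values cover the spread among these arrays alone, which may be technical.

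Epithelial and endocrine genes were checked against the label first. The E-cadherin gene Cdh1 read 12.04, 11.93 and 12.04 in gastric arrays, against 11.98 and 11.98 in colonic arrays and was not called. The keratin gene Krt18 stood at 13.10 in gastric and 12.93 in colonic arrays and was called higher. This call was lost with the replicate block (adjusted p = 0.0683) and without gastric replicate 3 (0.109) or colonic replicate 2 (0.178). The keratin gene Krt8 was called as well, with adjusted p-values of 4.39e-10 to 8.14e-07 over 15 alternatives, so epithelial genes were not all level between the groups. The granin gene Chgb, which marks most endocrine cells, was far above background in both groups. It read 14.17, 14.25 and 14.29 in gastric arrays, against 10.27 and 10.33 in colonic arrays. The other endocrine genes checked, Chga, Scg5, Neurod1, Insm1, Syp and Neurog3, were higher in gastric cells as well. Of these, Chga, Neurog3 and Syp stood below Chgb in colonic arrays, with Syp closest to background, as given below. The leukocyte gene Ptprc (CD45) was at background in both, at 6.55 in gastric and 6.58 in colonic arrays. Genes known from other epithelial cell types differed between the groups. A summed level adds all measured members, those at background too, so it does not by itself show detection. Over all rows, 20.2% were called higher and 23.9% lower. Genes of gastric mucous cells had a summed log2 level of 17.40 to 17.42 in gastric arrays and 11.28 to 11.31 in colonic arrays, with 15 of 16 measured members higher in gastric cells. Goblet cell genes summed to 16.72 to 16.77 in gastric arrays and 17.62 to 17.63 in colonic arrays, with 17 of 22 lower in gastric cells, and Paneth cell and antimicrobial genes to 15.39 to 15.43 in gastric arrays and 17.44 to 17.50 in colonic arrays, with 19 of 26 lower. Colonocyte genes summed to 12.57 to 12.61 in gastric arrays and 14.16 to 14.21 in colonic arrays, with 19 of 20 lower. The part of these cells in the differences given below was not tested. In sorted cells measured in bulk, fewer cells of a type and less RNA per cell cannot be told apart.

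Gastrin, ghrelin, somatostatin, gastric inhibitory polypeptide, peptide YY and cholecystokinin transcripts were higher in gastric cells, and those of proglucagon, insulin-like peptide 5, neurotensin, tachykinin and the guanylins were lower. Gast, the gastrin gene, read 15.49, 15.49 and 15.49 in gastric arrays, against 6.59 and 6.52 in colonic arrays. The gastric values are the top of the scale and the colonic ones lie at background, and the ratio of at least 409-fold (log2 difference 8.93, SE 0.05, adjusted p = 1.78e-20) is a lower bound. The stretch before the Gast start site is shown because gastrin is the hormone the antrum is known for. It comes from RefSeq (GRCm38.p6, chr11:100334157-100334406, plus strand). Both strands of its 250 bases were searched for the TATA box letters TATAAA. The capitals mark the match, at 28 to 23 bases before the start. This match is on the strand opposite to the gene, whose own strand reads TTTATA there. On either strand, TATAAA occurs in 13% of the 27025 RefSeq promoters of this length.

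Gast: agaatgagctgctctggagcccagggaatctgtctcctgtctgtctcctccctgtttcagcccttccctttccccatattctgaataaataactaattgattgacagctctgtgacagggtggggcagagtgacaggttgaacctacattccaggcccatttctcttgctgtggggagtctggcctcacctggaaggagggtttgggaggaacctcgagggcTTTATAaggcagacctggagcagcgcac

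Ghrl, which encodes the hunger hormone ghrelin, read 15.27, 15.25 and 15.25 in gastric arrays, against 7.72 and 7.62 in colonic arrays. All gastric arrays lay far above both colonic arrays, a 192-fold difference (adjusted p = 5.65e-20). These gastric values lay near the highest value over all arrays, 15.49, which limits what the ratio can show. Sst, the somatostatin gene, read 15.43, 15.43 and 15.37 in gastric arrays, against 10.37 and 10.42 in colonic arrays. It was thus clearly expressed in colonic cells as well, and 32.2-fold higher in the gastric arrays (adjusted p = 8.29e-18). Gip, which encodes an incretin made by K cells of the upper gut, read 12.02, 12.18 and 12.27 in gastric arrays, against 7.34 and 7.33 in colonic arrays, a 28.2-fold difference (adjusted p = 2.8e-16). Its colonic values lay close to the background level. Pyy, a hormone gene of L cells, read 13.79, 13.83 and 13.82 in gastric arrays, against 11.02 and 11.10 in colonic arrays. It was well above background in both groups and 6.74-fold higher in the gastric arrays (adjusted p = 2.27e-15). Cck, the cholecystokinin gene, was 5.47-fold higher in gastric cells (10.34 ± 0.05 (SD, n = 3) there and 7.89 ± 0.03 (SD, n = 2) in the colon, adjusted p = 2.21e-14), and Iapp, the amylin gene, at least 1.91-fold (adjusted p = 7.61e-09).

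Insl5 and Nts were at background in gastric cells and above it in colonic cells. Insl5, the gene of insulin-like peptide 5, read 6.56, 6.57 and 6.64 in gastric arrays, against 9.14 and 8.97 in colonic arrays. This makes the gene at least 4.73-fold lower in gastric cells (log2 difference -2.47, SE 0.06, adjusted p = 4.28e-14). Duodenal arrays were at background too, at 6.59 ± 0.04 (SD, n = 3). Gcg, the proglucagon gene of L cells, read 8.61, 8.72 and 8.73 in gastric arrays, against 11.09 and 10.99 in colonic arrays. It was expressed in both segments and 5.11-fold lower in the gastric arrays (adjusted p = 6.35e-14), opposite to Pyy. Nts, the neurotensin gene, read 6.52, 6.62 and 6.70 in gastric arrays, against 8.77 and 8.71 in colonic arrays, with gastric arrays at background and a difference of at least 3.8-fold (adjusted p = 3.19e-13). Tac1, which encodes substance P, was 2.46-fold lower in gastric cells (8.85 ± 0.06 (SD, n = 3) there and 10.15 ± 0.01 (SD, n = 2) in the colon, adjusted p = 3.64e-11). Guca2a, the gene of guanylin, a peptide that drives chloride and water secretion into the gut, read 11.63, 11.58 and 11.54 in gastric arrays, against 15.04 and 14.95 in colonic arrays. Every colonic array lay above every gastric array, by 10.7-fold (adjusted p = 2.52e-16), and its relative Guca2b (uroguanylin) was 2.65-fold lower in the gastric arrays (adjusted p = 3.61e-10).

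Several peptide genes separated the segments little or not at all. Sct, the secretin gene, stood at 13.02 ± 0.06 (SD, n = 3) in gastric and 12.73 ± 0.09 (SD, n = 2) in colonic cells, a difference of 1.22-fold (adjusted p = 0.000459). Ppy, the pancreatic polypeptide gene, stood at 7.49 in gastric and 7.33 in colonic arrays (1.12-fold higher, adjusted p = 0.0175), a call lost without gastric replicate 3 (adjusted p = 0.0559) and without colonic replicate 1 (adjusted p = 0.141). The insulin genes Ins1 and Ins2 read 7.03 and 7.04 in gastric cells and were at background in colonic cells, at 6.70 and 6.57, so both lay close to background, and Ucn3 did likewise (7.12 in gastric and 6.72 in colonic arrays). Adm, the adrenomedullin gene, was lower in gastric cells (6.80 in gastric against 7.05 in colonic arrays, adjusted p = 0.00384), which was lost without colonic replicate 2 (adjusted p = 0.0876, range 0.00161 to 0.0876 over 15 alternatives). Among 35 measured genes of the list, 12 were higher, 7 lower and 16 not called, a share called of 54.3% beside 44.1% of all rows, with a median log2 difference of 0.00 beside -0.02 over all rows. The genes not called were Crh, Gal, Cartpt, Calca, Calcb, Npy, Nmb, Vip, Nmu, Pthlh, Trh, Pdyn, Grp, Apln, Ucn and Nppc, and 13 genes of the list were at background in both groups. Of these, Nppc was called lower with the 5 arrays alone (adjusted p = 0.0194), with the replicate block (adjusted p = 0.00366) and without duodenal replicate 1 (adjusted p = 0.0252) or 3 (adjusted p = 0.0258). Ucn was called lower without colonic replicate 2 (adjusted p = 0.00652).

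**Figure D1:**
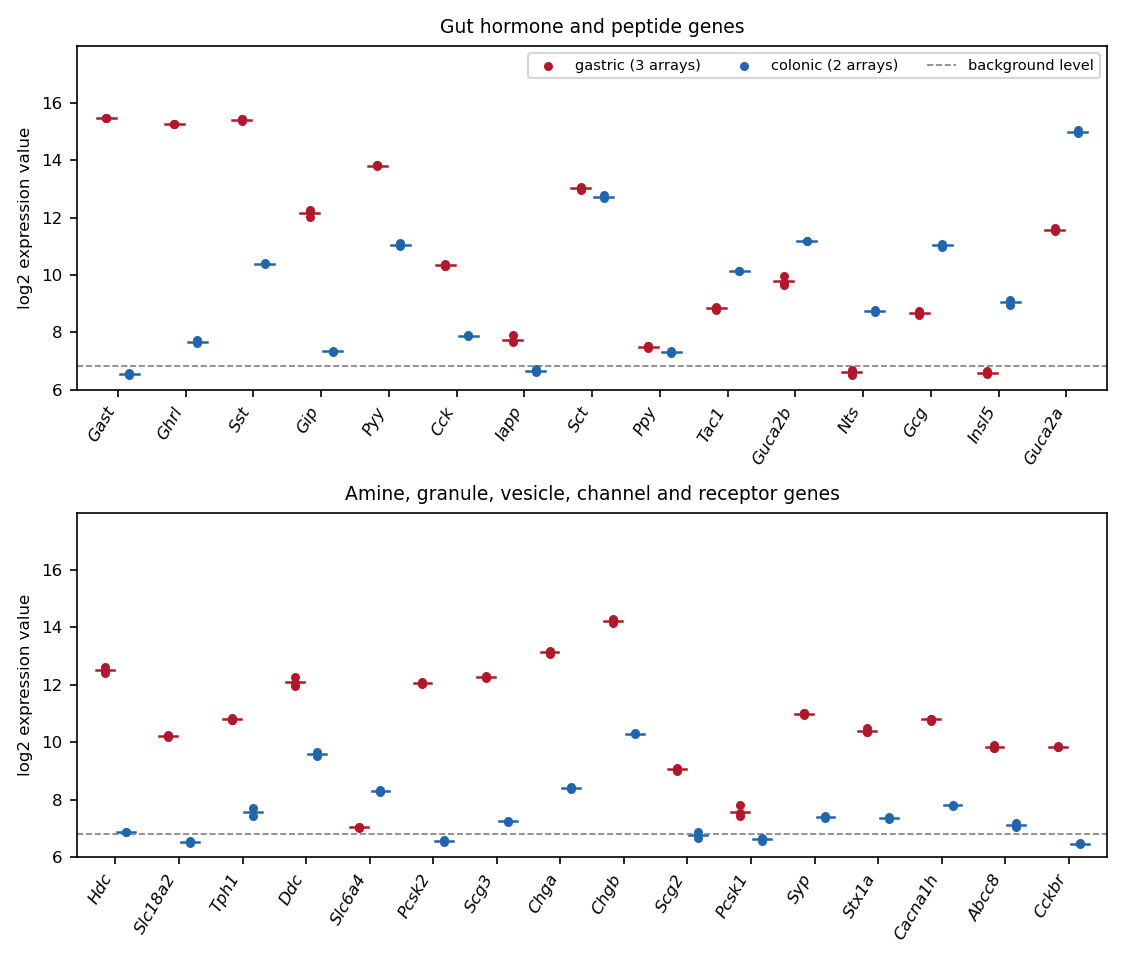
Log2 expression values of hormone genes (upper panel) and of amine, granule, vesicle, channel and receptor genes (lower panel), one point per array, gastric in red and colonic in blue, with a bar at each group's mean and a dashed line at the background level of 6.81. Gast, Ghrl and Sst stand above 15 in gastric arrays, while Insl5, Gcg, Nts and Guca2a are higher in colonic arrays.

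Of 14 measured genes for making, storing and clearing biogenic amines, 7 were higher in gastric cells, 2 lower and 5 not called. This is a share called of 64.3%, beside 44.1% of all rows, and 5 genes were at background in both groups. Hdc, the enzyme gene that makes histamine and that marks enterochromaffin-like cells of the stomach, read 12.42, 12.52 and 12.61 in gastric arrays, against 6.88 and 6.87 in colonic arrays. The colonic arrays lay close to the background level, and the ratio was 49.8-fold (adjusted p = 4.53e-18). Slc18a2 (VMAT2), which loads amines into vesicles, read 10.23, 10.24 and 10.19 in gastric arrays, against 6.48 and 6.55 in colonic arrays, with colonic arrays at background and a difference of at least 10.6-fold (adjusted p = 8.29e-16). Tph1, which makes serotonin in enterochromaffin cells, was 9.42-fold higher (10.79 ± 0.04 (SD, n = 3) in gastric against 7.56 ± 0.19 (SD, n = 2) in colonic arrays), Ddc, the decarboxylase gene of serotonin and dopamine synthesis, 5.72-fold, and Gch1, which makes the cofactor of these hydroxylases, 5.43-fold. Th, the tyrosine hydroxylase gene, was at least 2.62-fold higher. Slc6a4, the serotonin reuptake transporter gene, went the other way and read 7.02, 7.03 and 7.03 in gastric arrays, against 8.25 and 8.35 in colonic arrays, a 2.42-fold difference (adjusted p = 2.15e-11). The second gene called lower, Maoa, was at background in both groups. Its call was lost with trend and robust variance, with the replicate block (adjusted p = 0.0976) and without gastric replicate 2, gastric replicate 3, colonic replicate 1 or colonic replicate 2 (highest adjusted p = 0.17).

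Granule protein genes were higher in gastric cells almost without exception. Pcsk2, a convertase that cuts prohormones, read 12.06, 12.09 and 12.03 in gastric arrays, against 6.53 and 6.60 in colonic arrays, and the colonic arrays were at background (at least 38-fold, adjusted p = 4.15e-18). Its sister convertase gene Pcsk1 stood much closer to background, at 7.58 ± 0.20 (SD, n = 3) in gastric and 6.62 ± 0.07 (SD, n = 2) in colonic cells (at least 1.7-fold). Chga, the chromogranin A gene, read 13.06, 13.14 and 13.18 in gastric arrays, against 8.36 and 8.45 in colonic arrays, which put every gastric array above both colonic ones by 26.4-fold (adjusted p = 1.21e-17). Chgb was 15.3-fold higher, the convertase chaperone gene Scg5 20.1-fold, Scg2 at least 4.62-fold and Pcsk1n, an inhibitor gene of Pcsk1, 5.04-fold. Ptprn (IA-2), a granule membrane protein gene, was at least 3.54-fold higher, Cadps, which primes granules for release, at least 3.34-fold, and Vgf, a neuroendocrine peptide precursor gene, at least 1.98-fold. Qpct, which forms pyroglutamate at peptide ends, was the one gene called lower, at 6.93 in gastric against 7.42 in colonic arrays (1.41-fold, adjusted p = 1.85e-05). In all, 16 of 18 genes rose, 1 fell and 1 (Slc30a8, at background in both) was not called, with a median log2 difference of 1.91. This is a share called of 94.4%, beside 44.1% of all rows. The list was chosen with its direction in these data known.

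Genes of the machinery that fuses granules with the membrane were mostly higher too. Syp (synaptophysin), a vesicle membrane gene, averaged 10.99 ± 0.03 (SD, n = 3) in gastric cells and 7.40 ± 0.03 (SD, n = 2) in colonic cells, which is 12.1-fold higher in the gastric arrays (adjusted p = 2.07e-16). The syntaxin gene Stx1a was 8.25-fold higher, the complexin gene Cplx2 at least 5.48-fold, the vesicle protein gene Sv2a at least 5.94-fold, the synaptotagmin gene Syt5 at least 4.84-fold and the vesicle SNARE gene Vamp2 4.27-fold. The 3 genes called lower were SNARE-related or priming genes, namely Snap23 (1.39-fold), Cadps2 (1.24-fold) and Rab27b (1.14-fold), the last not called without colonic replicate 2 (adjusted p = 0.0744). The neuronal SNARE gene Snap25 was at background in both groups (6.51 in gastric and 6.54 in colonic arrays). Of 27 genes, 18 were higher, 3 lower and 6 not called (77.8% called, beside 44.1% of all rows, median 0.54).

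Ion channel genes of excitable cells showed a few large gastric differences and many genes at background. Cacna2d1, a calcium channel subunit gene, read 9.75, 9.71 and 9.75 in gastric arrays, against 6.54 and 6.74 in colonic arrays, with colonic arrays at background (at least 7.57-fold, adjusted p = 4.24e-15). Cacna1h, the pore of a T-type calcium channel, was 8-fold higher, the sulfonylurea receptor gene Abcc8 6.61-fold and the potassium channel gene Kcnh2 3.27-fold. Cacna1a, the pore of P/Q-type calcium channels, was 2.29-fold higher. Trpm4, a calcium-activated cation channel gene, was 1.91-fold lower in gastric cells, and Ano1, a calcium-activated chloride channel gene, 2.02-fold lower. The mechanosensor gene Piezo2 and the irritant receptor gene Trpa1, both known from enterochromaffin cells, were at background in both groups. Of 25 genes, 10 were higher, 3 lower and 12 not called, with 11 at background in both groups and a share called of 52% beside 44.1% over all rows.

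Receptors by which these cells sense nutrients and signals went both ways. Ffar2, a receptor for short-chain fatty acids, read 11.62, 11.53 and 11.63 in gastric arrays, against 10.47 and 10.53 in colonic arrays and was 2.14-fold higher in the gastric arrays (adjusted p = 3.24e-10). Ffar4 (GPR120), a receptor for long-chain fatty acids, read 10.72, 10.67 and 10.68 in gastric arrays, against 11.18 and 11.13 in colonic arrays and was 1.38-fold lower (adjusted p = 1.62e-06). Both were well above background in both segments. Casr, the calcium-sensing receptor known to trigger gastrin release, was at least 1.47-fold higher, and Gpr142, a tryptophan receptor gene, stood at 7.01 in gastric against 6.57 in colonic arrays. Gpr35 was at least 1.44-fold lower and the adenosine receptor gene Adora2b at least 1.26-fold lower. Ffar1, Gpr119 and Gpbar1, the bile acid receptor gene, were at background in both groups, as were 14 of 26 genes of the list, of which 9 were higher and 4 lower. The share called was 50%, near the 44.1% over all rows, and the median log2 difference was 0.01.

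Among receptors for hormones and transmitters, Cckbr, the gastrin receptor gene, stood out. It read 9.84, 9.85 and 9.83 in gastric arrays, against 6.44 and 6.49 in colonic arrays, with both colonic arrays at background (at least 8.15-fold, adjusted p = 1.53e-15). Insrr, an alkali-sensing relative of the insulin receptor, was at least 2.58-fold higher, the galanin receptor gene Galr1 at least 1.73-fold and the muscarinic receptor gene Chrm3 1.73-fold. Adra2a, an adrenergic receptor gene, was well above background in both segments and 1.28-fold higher in gastric cells. Vipr1, a receptor gene for vasoactive intestinal peptide, was at least 1.27-fold lower, and Ptger3 was called lower too (6.57 in gastric against 6.83 in colonic arrays). Cckar, Glp1r, Ghsr and Ntsr1 were at background in both groups. Of 32 genes, 11 were higher, 2 lower and 19 not called, a share called of 40.6%, below the 44.1% over all rows.

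Transcription factors of the endocrine lineage were higher in gastric cells for 25 of 35 measured genes, with a median log2 difference of 1.00. In either direction 74.3% were called, beside 44.1% of all rows. Neurog3, whose activity the sorted reporter follows, read 13.07, 13.08 and 12.95 in gastric arrays, against 8.70 and 8.76 in colonic arrays. The colonic arrays were well above background, and the gastric arrays 19.8-fold higher (adjusted p = 3.81e-17). Isl1, a factor of many mature endocrine cells, read 12.70, 12.76 and 12.71 in gastric arrays, against 7.70 and 7.65 in colonic arrays, a 33.1-fold difference (adjusted p = 1.02e-17). Insm1, which drives endocrine differentiation, was 11.1-fold higher, Hhex, known from D cells, 10.1-fold, Myt1 9.42-fold, Rfx6 9.41-fold, Nkx2-2 5.98-fold and Neurod1 4.62-fold. Onecut2 was at least 5.61-fold, St18 6.24-fold, Nkx6-1, a factor of G cells and beta cells, at least 4.69-fold and Fev, a factor of serotonin cells, 4.67-fold higher.

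Pax4, which steers endocrine precursors between fates, read 8.08, 8.11 and 8.10 in gastric arrays, against 7.06 and 7.13 in colonic arrays (2-fold, adjusted p = 4.57e-10). Its gastric values were modest, and the groups did not overlap. The pioneer factor genes Foxa1 and Foxa2 differed little, by 1.44-fold and 1.77-fold. Mafa, Neurod4 and Glis3 did not pass the test, and Mafa was at background in both groups (6.68 in gastric and 6.69 in colonic arrays). Mnx1 was the only member called lower (6.65 in gastric against 6.80 in colonic arrays, adjusted p = 0.0444), at background in both groups, and the call was lost in 6 of 14 alternative settings, with adjusted p-values of 0.0306 to 0.234 over these.

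Factors known from the stomach and foregut were mostly higher in gastric cells. Meis2, a homeobox cofactor gene, read 11.14, 11.19 and 11.26 in gastric arrays, against 6.57 and 6.65 in colonic arrays, with colonic arrays at background (at least 20.9-fold, adjusted p = 6.16e-17). Pdx1, known from the antrum, the duodenum and the pancreas, read 8.97, 9.05 and 8.83 in gastric arrays, against 6.47 and 6.77 in colonic arrays and differed by at least 4.39-fold (adjusted p = 2.76e-12). Sox21 was 4.94-fold and Sox2, the foregut factor, at least 1.9-fold higher, and Meis1 at least 3.08-fold. Foxq1, known from gastric mucous cells, was 8.46-fold higher. Gata4, Gata5 and Gata6, which pattern gut endoderm, were at least 1.46-fold, 1.67-fold and 1.76-fold higher. Tbx3 was 1.57-fold lower, and Barx1, which acts in the stomach mesenchyme, was at background in both groups. Of 16 genes, 10 were higher and 2 lower (75.0% called, beside 44.1% of all rows).

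Intestinal regulators were lower in gastric cells for 14 of 21 genes and higher for 1 (71.4% called, beside 44.1% of all rows). Cdx2, the homeobox factor that sets intestinal identity, averaged 8.0 ± 0.06 (SD, n = 3) in gastric cells and 11.80 ± 0.09 (SD, n = 2) in colonic cells. Every colonic array lay above every gastric array, by 13.9-fold (adjusted p = 1.92e-16), and the gastric values lay above the background level. Cdx1 gave nearly the same picture, with 7.93 ± 0.03 (SD, n = 3) in gastric against 11.78 ± 0.02 (SD, n = 2) in colonic arrays (14.4-fold, adjusted p = 3.64e-17). Osr2, a zinc finger factor gene, read 6.69, 6.56 and 6.60 in gastric arrays, against 11.52 and 11.54 in colonic arrays. Gastric arrays were at background (at least 26.3-fold, adjusted p = 2.43e-17), and so were duodenal arrays, at 6.62 ± 0.09 (SD, n = 3). Isx, which controls vitamin A handling in the intestine, was 11.8-fold lower, and Nr1h4, the bile acid receptor FXR, 9.05-fold lower in gastric cells. Klf4, Nr1i2 (PXR) and Hnf4a were 3.03-fold, 2.38-fold and 1.97-fold lower. Ascl2, a factor of crypt stem cells, was the one member called higher (7.52 in gastric against 7.27 in colonic arrays).

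Sis, the sucrase-isomaltase gene, is a textbook target of Cdx2 and was 7.47-fold lower in gastric cells (7.40, 7.33 and 7.27 in gastric arrays, against 10.21 and 10.25 in colonic arrays, adjusted p = 1.74e-15). Its 250 bases before the start are shown for that reason (RefSeq, GRCm38.p6, chr3:72967864-72968113, minus strand), with capitals marking the match to the caudal-type letters TTTATNG or their complement, at 52 to 46 bases before the start. This pattern occurs in 10.2% of the 27025 promoters, in 8.29% of the 519 promoters of rows at least 2-fold higher and in 12.7% of the 448 promoters of rows at least 2-fold lower in gastric cells. A match of letters is a description and does not show binding.

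Sis: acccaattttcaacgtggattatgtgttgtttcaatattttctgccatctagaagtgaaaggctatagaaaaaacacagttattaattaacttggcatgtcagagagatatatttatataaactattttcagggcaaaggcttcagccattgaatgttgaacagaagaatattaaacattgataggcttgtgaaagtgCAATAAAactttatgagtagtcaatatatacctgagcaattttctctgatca

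Hox genes, whose order on the chromosome follows the body axis, were lower in gastric cells for 19 of 39 genes (48.7%, beside 23.9% of all rows called lower and 44.1% called in either direction) and higher for none. Hoxb7 read 6.66, 6.59 and 6.51 in gastric arrays, against 9.56 and 9.39 in colonic arrays, Hoxa7 read 6.53, 6.59 and 6.49 in gastric arrays, against 9.28 and 9.28 in colonic arrays and Hoxb6 read 6.58, 6.67 and 6.51 in gastric arrays, against 9.06 and 9.23 in colonic arrays. In all of these the gastric arrays were at background and the colonic arrays far above it, by at least 6.33-fold, at least 5.53-fold and at least 5.03-fold. Hoxb5 was at least 3.27-fold, Hoxd4 at least 2.57-fold, Hoxb4 at least 2.2-fold, Hoxa5 at least 1.89-fold and Hoxd8 at least 1.52-fold lower. These genes had the 8 largest Hox differences, and they belong to the A, B and D clusters. The most posterior genes were near background, with Hoxa13 at 7.17 ± 0.01 (SD, n = 2) and Hoxd13 at 6.93 ± 0.00 (SD, n = 2) in colonic arrays and Hoxb13 at background there (6.78). None of the C cluster genes was called, and 19 of the 39 genes were at background in both groups.

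**Figure D2:**
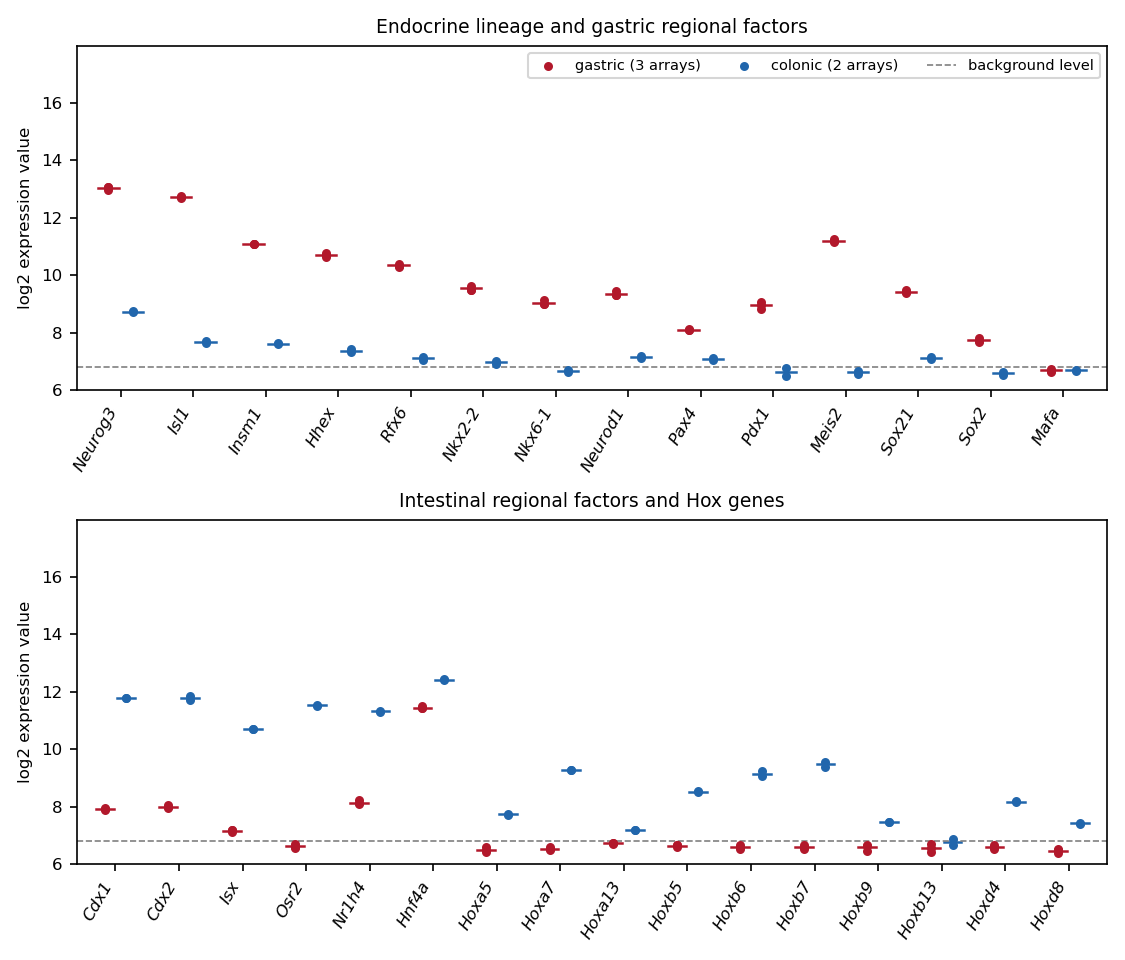
Log2 expression values of endocrine lineage and gastric regional factors (upper panel) and of intestinal regional factors and Hox genes (lower panel), one point per array, gastric in red and colonic in blue, with bars at group means and a dashed line at the background level of 6.81. The upper genes other than Mafa are higher in gastric arrays. Most of the lower genes are higher in colonic arrays, with gastric Hox values at background. Colonic values of Hoxb13 are at background too, and those of Hoxa13 are near it.

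Genes of gastric mucous, chief and parietal cells were among those with the largest gastric differences. Gkn2, a gastrokine of surface mucous cells, read 15.22, 15.16 and 15.20 in gastric arrays, against 6.49 and 6.46 in colonic arrays (at least 333-fold, adjusted p = 1.97e-20). Tff2, a trefoil factor of neck mucous cells, read 15.34, 15.34 and 15.30 in gastric arrays, against 7.80 and 7.76 in colonic arrays, a 188-fold difference. The mucin genes Muc5ac and Muc6 were at least 28.3-fold and at least 11.9-fold higher, with colonic arrays at background. Cldn18, which encodes the stomach claudin, was at least 71.3-fold higher, the surface antigen gene Psca 74.2-fold and the water channel gene Aqp5 at least 36.4-fold. Capn8, a calpain gene, was the one mucous gene called lower (6.73 in gastric against 7.26 in colonic arrays). Pgc, the progastricsin gene of chief cells, read 15.30, 15.30 and 15.34 in gastric arrays, against 6.44 and 6.68 in colonic arrays, which is at least 361-fold higher in gastric cells. Atp4a and Atp4b, both subunits of the parietal cell proton pump, were 24-fold and at least 68.1-fold higher, with Atp4b at 12.94, 12.86 and 12.92 in gastric arrays. The row GIF, an older symbol of the intrinsic factor gene that RefSeq also gives to another gene, was at least 175-fold higher. Parietal cells are known mainly from the corpus, and whether the gastric arrays hold cells from outside the antrum was not tested. Of 15 chief and parietal genes, 12 were higher and 1, the water channel gene Aqp4 (14.8-fold), lower. This is a share called of 86.7%, beside 44.1% of all rows.

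Genes of the colonic surface were lower in gastric cells. Hsd11b2, which protects the mineralocorticoid receptor from cortisol-like steroids, read 6.71, 6.85 and 6.76 in gastric arrays, against 10.09 and 10.31 in colonic arrays, with a gastric mean at background (at least 10.4-fold, adjusted p = 4.92e-15). Cyp2c55 and Sycn were at least 19.4-fold and 19.7-fold lower, the colonic proton pump gene Atp12a at least 6.94-fold and the protease gene Mep1a at least 7.49-fold. Scnn1b, a subunit gene of the epithelial sodium channel, was at least 3.04-fold lower and the water channel gene Aqp8 2.72-fold. The chloride exchanger gene Slc26a3, which colonocytes are known to express strongly, was close to background in colonic arrays (6.89 ± 0.03 (SD, n = 2)), and the carbonic anhydrase gene Car2 was not called (9.67 in gastric and 9.56 in colonic arrays). Of 20 genes, 19 were lower and none higher, with a median log2 difference of -1.57. Beside this, 23.9% of all rows were called lower and 44.1% in either direction.

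Goblet cell genes were high in both groups and mostly lower in gastric cells. The lectin gene Zg16 stood at 14.90 ± 0.07 (SD, n = 3) in gastric and 15.02 ± 0.00 (SD, n = 2) in colonic arrays and was not called, and Tff3 and Spink4 differed by 1.17-fold and 1.61-fold. Retnlb, a resistin-like peptide gene of distal goblet cells, read 9.52, 9.40 and 9.47 in gastric arrays, against 15.16 and 15.07 in colonic arrays. The groups lay far apart, by 50.2-fold (adjusted p = 2.2e-18), while duodenal arrays stood near the gastric ones at 9.23 ± 0.03 (SD, n = 3). Spdef, a goblet maturation factor gene, was 3.56-fold lower, the mucin gene Muc13 4.29-fold and the sialyltransferase gene St6galnac1 at least 3.57-fold. In the list, 17 of 22 genes were lower and none higher (77.3% called, beside 44.1% of all rows).

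Paneth cells are a cell type of the small intestine, yet Paneth cell genes were among those most strongly lower in gastric than in colonic cells. Defa31, an alpha-defensin gene, read 6.49, 6.57 and 6.54 in gastric arrays, against 13.57 and 13.62 in colonic arrays. Gastric arrays were at background (at least 110-fold, adjusted p = 9.39e-19), and duodenal arrays read 6.88, 6.73 and 6.66. The whole list of Paneth cell and antimicrobial genes nevertheless summed to 17.30 to 17.36 in duodenal arrays, far above the gastric sums given above. Mptx1, a mucosal pentraxin gene, read 6.84, 6.87 and 6.84 in gastric arrays, against 13.76 and 13.46 in colonic arrays and was 108-fold lower. Defa26 was 11.2-fold lower and Mmp7, the protease that matures defensins, 4.39-fold, and the lysozyme gene Lyz1, which stood at 11.23 ± 0.03 (SD, n = 3) in gastric cells, 2.74-fold. Alpha-defensin genes are near-identical copies, so single rows may share signal. The lectin genes Reg3a, Reg3g and Reg3b were 19.5-fold, 14.8-fold and 8.14-fold lower in gastric cells, while Reg1 was 13.6-fold higher, with Lyz2 (at least 1.72-fold) and Habp2 (9.58-fold). Fabp6, the ileal bile acid binding protein gene, read 6.58, 6.70 and 6.70 in gastric arrays, against 12.67 and 12.54 in colonic arrays, with gastric arrays at background (at least 55.4-fold, adjusted p = 1.98e-17). The ileal genes Fgf15 and Slc10a2 stood at 7.02 and 6.99 and 6.64 and 6.58 in colonic arrays, at or near background. Whether the colonic arrays hold cells from outside the colon was not tested.

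Enterocyte and brush border genes went both ways, with 10 of 27 higher and 13 lower (85.2% called, beside 44.1% of all rows). Apoa1, an apolipoprotein gene, was 5.72-fold and Anpep, an aminopeptidase gene, 4.09-fold higher in gastric cells, and the amino acid transporter gene Slc7a9 was 3.7-fold lower. Of 20 tuft cell genes, 11 were higher (55%, beside 20.2% of all rows) and none lower. Only 4 were higher by at least 2-fold, and 9 were at background in both groups. Their summed level was 12.40 to 12.45 in gastric arrays and 11.31 to 11.33 in colonic arrays. Duodenal arrays, at 12.42 to 12.43, were level with the gastric ones. Avil (advillin) was 10.3-fold higher, Alox5ap 4.53-fold and the succinate receptor gene Sucnr1 at least 2.49-fold, whereas the tuft master factor gene Pou2f3 was at background in both. Leukocyte genes were called for 18.8% of 32 genes, under the 44.1% over all rows, and 25 were at background in both groups, the T cell genes Cd3e, Cd3g and Cd8a among them. Laptm5 was the largest exception (at least 3.33-fold higher). Of stromal, endothelial, neural and muscle genes, 13 of 24 were at background in both, the collagen genes Col1a1, Col1a2 and Col3a1 included, while Ret and Uchl1, which are also neuroendocrine genes, were 2.31-fold and at least 1.91-fold higher. The haemoglobin gene Hba-a1 was also higher, by at least 2.79-fold.

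**Figure D3:**
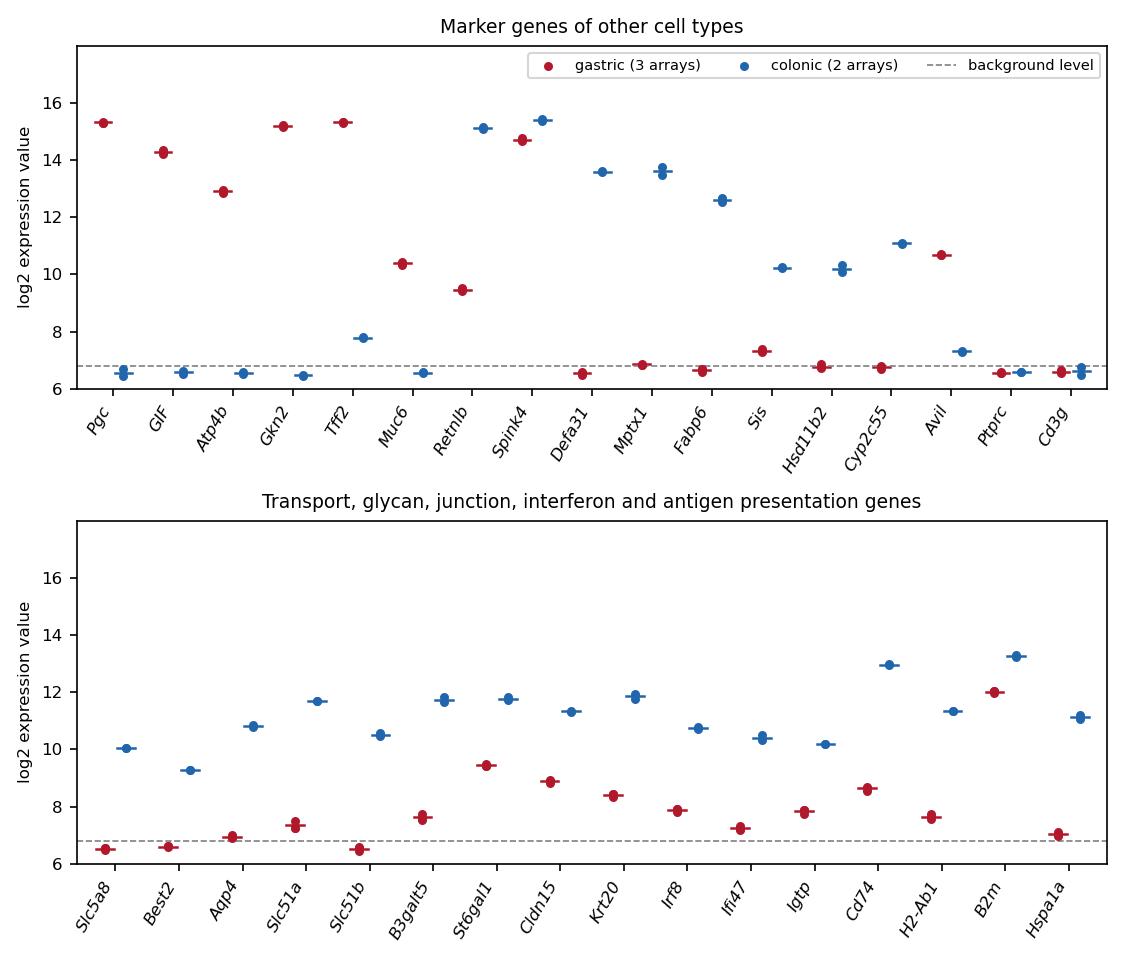
Log2 expression values of marker genes of other cell types (upper panel) and of transport, glycan, junction, interferon and antigen presentation genes (lower panel), one point per array, gastric in red and colonic in blue, with bars at group means and a dashed line at the background level of 6.81. Gastric gland genes are higher in gastric arrays, Defa31 and Fabp6 are high in colonic arrays only, and Ptprc and Cd3g are at background in both.

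Several transport genes known from the distal gut were lower in gastric cells. Slc5a8, a transporter of short-chain fatty acids, read 6.54, 6.54 and 6.48 in gastric arrays, against 10.06 and 10.06 in colonic arrays, with gastric arrays at background (at least 9.48-fold, adjusted p = 2.81e-16). Best2, a bicarbonate channel of colonic goblet cells, read 6.62, 6.62 and 6.58 in gastric arrays, against 9.27 and 9.29 in colonic arrays (at least 5.52-fold). Sgk1, the aldosterone-induced kinase gene, was 4.98-fold lower, the chloride channel gene Cftr 2.32-fold and the carbonic anhydrase gene Car13 2.05-fold. The sodium pump subunit gene Atp1b1 was 1.31-fold higher. Of 27 genes for sodium, chloride, water and acid transport, 6 were higher, none of them 2-fold, and 15 lower. This is a share called of 77.8%, beside 44.1% of all rows.

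Several genes that handle bile acids and sterols were lower as well. Slc51a and Slc51b, both subunits of the basolateral bile acid exporter, read 7.51, 7.26 and 7.26 in gastric arrays, against 11.68 and 11.69 in colonic arrays and 6.44, 6.56 and 6.60 in gastric arrays, against 10.57 and 10.46 in colonic arrays. Gastric Slc51b was at background, and the genes were 20.3-fold and at least 13-fold lower in gastric cells. Abcg5 and Abcg8, the subunits of the sterol exporter, were 4.72-fold and 3.11-fold lower, and Abcc3, which exports conjugated bile acids, 2.82-fold. Abcc5, a cyclic nucleotide exporter gene, was 2.17-fold higher. Cholesterol synthesis genes were lower for 16 of 20, with a median of -0.67. The enzyme genes Cyp51 and Dhcr7 were 2.2-fold and 2.01-fold lower.

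Of 23 claudin and junction genes, 15 were lower in gastric cells and 2 higher (73.9% called, beside 44.1% of all rows). Cldn15, the pore-forming claudin of the intestine, read 8.94, 8.89 and 8.84 in gastric arrays, against 11.34 and 11.32 in colonic arrays and was 5.42-fold lower in the gastric arrays (adjusted p = 1.68e-14). Cldn23, Cldn3 and Cldn7 were 4.05-fold, 3.82-fold and 2.88-fold lower and Cldn4 was 1.49-fold higher. The intestinal cadherin genes Cdh17, Cdhr2 and Cdhr5 were 4.92-fold, 4.63-fold and 4.59-fold lower. Among keratins, Krt20, which marks differentiated intestinal cells, read 8.34, 8.43 and 8.46 in gastric arrays, against 11.78 and 11.93 in colonic arrays (10.9-fold lower), Krt19 was 3.76-fold lower, and Krt23 was 19-fold higher. Mucin and glycan glycosyltransferase genes were lower for 20 of 27 (77.8% called in either direction, beside 44.1% of all rows), with a median of -0.80. B3galt5, a galactosyltransferase gene, read 7.53, 7.73 and 7.61 in gastric arrays, against 11.82 and 11.65 in colonic arrays (17.2-fold), B4galnt2, which makes the Sda antigen, was 9.97-fold lower, B3gnt5 8.87-fold, the sialyltransferase gene St6gal1 5.03-fold and the fucosyltransferase gene Fut4 4.86-fold. St6galnac2 was the one glycan gene called higher (1.84-fold).

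Detoxifying enzymes went both ways. The glutathione transferase genes Gsta4, Gsta2 and Gsta1 were 5.88-fold, 5.85-fold and 4.55-fold higher in gastric cells; the last 2 are near-identical copies and may share signal. Sult1a1, a phenol sulfotransferase gene, read 6.78, 6.91 and 6.83 in gastric arrays, against 11.62 and 11.47 in colonic arrays, and was 26.1-fold lower. Cyp4f14 was 8.43-fold lower and Aldh1b1, an acetaldehyde dehydrogenase gene, 6.72-fold. In the list, 14 of 38 genes were higher and 16 lower (78.9% called, beside 44.1% of all rows).

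Respiratory chain and fatty acid oxidation genes were mostly lower in gastric cells. Of 36 respiratory chain and ATP synthase genes, 27 were lower, 1 was higher (Atp5c1, 1.18-fold) and none differed 2-fold, with a median of -0.32. This is a share called of 77.8%, beside 44.1% of all rows. Cyc1 and Uqcrc1 of complex III were 1.89-fold and 1.88-fold lower. Fatty acid oxidation and ketone body genes were lower for 15 of 24 (83.3% called in either direction). Acads, which oxidises butyrate-length chains, was 3.08-fold lower, while Acsl1 was 3.94-fold higher. Of 21 glycolysis genes, 6 were higher and 9 lower (71.4% called). Aldoc was 4.39-fold, Pfkm 2.51-fold and the neuroendocrine enolase gene Eno2 at least 1.95-fold higher. Pck1 and Ldha were at least 2.75-fold and 1.82-fold lower. Slc38a5, a glutamine transporter gene, read 11.40, 11.31 and 11.28 in gastric arrays, against 6.89 and 6.59 in colonic arrays, with a colonic mean at background (at least 22.3-fold higher, adjusted p = 1.31e-15), and the duodenal mean was at background as well (6.70 ± 0.10 (SD, n = 3)).

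Interferon response and antigen presentation genes were lower in gastric cells as groups. Of 37 interferon genes, 31 were lower and 3 higher, a share called of 91.9% beside 44.1% of all rows, with a median of -0.95. Ifi47 and Igtp, GTPases that defend cells against intracellular microbes, read 7.34, 7.17 and 7.22 in gastric arrays, against 10.33 and 10.49 in colonic arrays and 7.75, 7.89 and 7.90 in gastric arrays, against 10.18 and 10.19 in colonic arrays. No gastric array overlapped a colonic one, and the genes were 9.01-fold and 5.03-fold lower in gastric cells. Irf8, a transcription factor gene better known from myeloid cells, read 7.82, 7.93 and 7.92 in gastric arrays, against 10.78 and 10.70 in colonic arrays and was 7.21-fold lower. Oas1g, which senses double-stranded RNA, was 6.37-fold lower, Oasl2 5.96-fold, the immunoproteasome gene Psmb9 4.9-fold, and Irf7 3.94-fold. Stat2 and Irf9, which carry the interferon signal to the nucleus, were 2.1-fold and 1.93-fold lower. The membrane protein genes Ifitm2 and Ifitm3, which block virus entry, were 1.6-fold and 1.4-fold higher, against the rest, as was Ifitm1, which was at background in both groups (6.70 in gastric against 6.53 in colonic arrays) and not called without colonic replicate 2 (adjusted p = 0.0566).

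The letters GAAA, any 2 bases and GAAA again, the core of the interferon-stimulated response element, were looked for on both strands in the 250 bases before the start of the interferon genes. They were found in 13 of the 28 measured interferon genes with a promoter in the table (46.4%), against 3.04% of all 27025 promoters. Igtp (GRCm38.p6, chr11:58199306-58199555, plus strand) and Oas1g (chr5:120887614-120887863, minus strand) are shown as 2 lower genes with this element, in capitals. It lies 34 to 25 bases before the Igtp start, and 2 overlapping copies lie 18 to 3 bases before the Oas1g start. The list was assembled from genes known to respond to interferon, so the element was to be found in it whatever the arrays show.

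Igtp: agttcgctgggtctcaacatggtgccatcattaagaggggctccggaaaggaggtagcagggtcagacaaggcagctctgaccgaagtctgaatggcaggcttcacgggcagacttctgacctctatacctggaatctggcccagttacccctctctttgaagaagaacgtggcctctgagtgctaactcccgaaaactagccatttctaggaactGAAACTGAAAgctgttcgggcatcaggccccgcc

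Oas1g: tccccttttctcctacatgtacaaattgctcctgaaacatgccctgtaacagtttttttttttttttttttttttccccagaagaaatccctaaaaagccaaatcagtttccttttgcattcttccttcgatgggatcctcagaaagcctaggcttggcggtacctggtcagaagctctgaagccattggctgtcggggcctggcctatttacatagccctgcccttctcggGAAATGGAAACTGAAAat

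Class II antigen presentation genes were lower in gastric cells too. Cd74, the invariant chain gene, read 8.55, 8.70 and 8.66 in gastric arrays, against 12.95 and 12.98 in colonic arrays, and H2-Ab1, a class II chain gene, read 7.73, 7.56 and 7.68 in gastric arrays, against 11.33 and 11.35 in colonic arrays. Gastric arrays were above background for both, and the genes were 20.1-fold and 12.8-fold lower in the gastric arrays (adjusted p = 4.35e-17 and 2.52e-16). H2-Aa, H2-DMb1 and H2-DMa were 7.96-fold, 6.5-fold and 5.92-fold lower, and Ciita, the master activator of class II genes, at least 1.64-fold. The class I light chain gene B2m was 2.36-fold lower, while H2-K1 differed by 1.13-fold and the lipid-presenting Cd1d1 was 1.75-fold higher. In the list, 16 of 23 genes were lower and 2 higher (78.3% called, beside 44.1% of all rows). Chemokine and cytokine genes were lower for 13 of 23 (65.2% called in either direction). Ccl6 was 5.96-fold, Ccl25, which calls T cells to the small intestine, 4.84-fold, Il18 3.08-fold, Ccl28 2.9-fold and Tnf at least 1.85-fold lower. The lymphocyte genes Cd3e, Cd8a and Cd4 were at background in both groups.

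Heat shock genes went both ways, with 4 of 13 higher and 5 lower (69.2% called, beside 44.1% of all rows). Hspa1a, the inducible Hsp70 gene, read 6.97, 7.11 and 7.02 in gastric arrays, against 11.07 and 11.19 in colonic arrays, and was 17.1-fold lower in the gastric arrays (adjusted p = 2.83e-16). Dnajb1 and Bag3, which heat stress also induces, were 1.57-fold and 1.5-fold lower, while the small heat shock genes Hspb1 and Hspb8 were 4.15-fold and at least 2.32-fold higher. Of 21 immediate early genes, which cells switch on within minutes of a stimulus, 7 were higher and 5 lower. This is a share called of 57.1%, beside 44.1% of all rows, and fewer were lower without colonic replicate 1. Egr1, at 14.22, 14.08 and 14.18 in gastric and 13.04 and 12.93 in colonic arrays, was 2.26-fold higher, and Fos, at 12.25 ± 0.00 (SD, n = 3) in gastric and 12.05 ± 0.03 (SD, n = 2) in colonic arrays, 1.15-fold higher. The part of dissociation in these values was not tested. Among folding and ER stress genes 8 of 23 were higher and 4 lower (52.2% called beside 44.1% over all rows), with the disulfide isomerase gene Pdia3 2.17-fold higher and the chaperone gene Hspa5 not called.

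Cell cycle genes were lower in gastric cells for 19 of 27 and higher for 2, with a median of -0.35 and no gene at 2-fold. In all, 77.8% of them were called, beside 44.1% of all rows. Top2a, which untangles DNA in dividing cells, read 9.02, 9.15 and 9.11 in gastric arrays, against 9.88 and 10.03 in colonic arrays (1.82-fold lower). Bub1b, Cdc20 and Aurka were 1.77-fold, 1.69-fold and 1.66-fold lower and Ccnd2 and Mcm7 higher (1.5-fold and at least 1.04-fold). Of the genes that stop the cycle, Cdkn1c (p57), known from endocrine precursors leaving the cycle, read 12.49, 12.58 and 12.47 in gastric arrays, against 8.28 and 8.29 in colonic arrays. The groups lay 18.7-fold apart (adjusted p = 4.95e-17), while Cdkn2b (p15) was 4.36-fold lower in gastric cells. Stem cell genes were mixed, with 8 of 22 higher and 7 lower (68.2% called, beside 44.1% of all rows). Lgr5, the stem cell receptor gene, was higher at 7.83 ± 0.06 (SD, n = 3) in gastric against 7.51 ± 0.01 (SD, n = 2) in colonic cells (adjusted p = 0.000409), and Olfm4 was 1.91-fold lower.

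In the Notch pathway, which decides between secretory and absorptive fates, Mfng, a Notch-modifying enzyme gene, read 9.68, 9.63 and 9.67 in gastric arrays, against 6.95 and 6.90 in colonic arrays and was 6.67-fold higher in the gastric arrays (adjusted p = 1.7e-15). The ligand gene Dll3 was at least 1.56-fold higher. Nrarp and Hes1, both Notch target genes, were 4.37-fold and 1.54-fold lower, as were the ligand gene Dll1 (1.94-fold) and the secretory factor gene Gfi1 (3.39-fold). Atoh1 was at background in both groups. Among Wnt, Bmp and Hedgehog genes, 7 of 32 were higher and 7 lower, a share called of 43.8%, near the 44.1% over all rows. The Wnt inhibitor gene Sfrp5 was at least 2.65-fold and Id2 2.47-fold higher, and Ihh (Indian hedgehog) and the receptor gene Fzd5 were 1.94-fold and 1.88-fold lower.

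**Figure D4:**
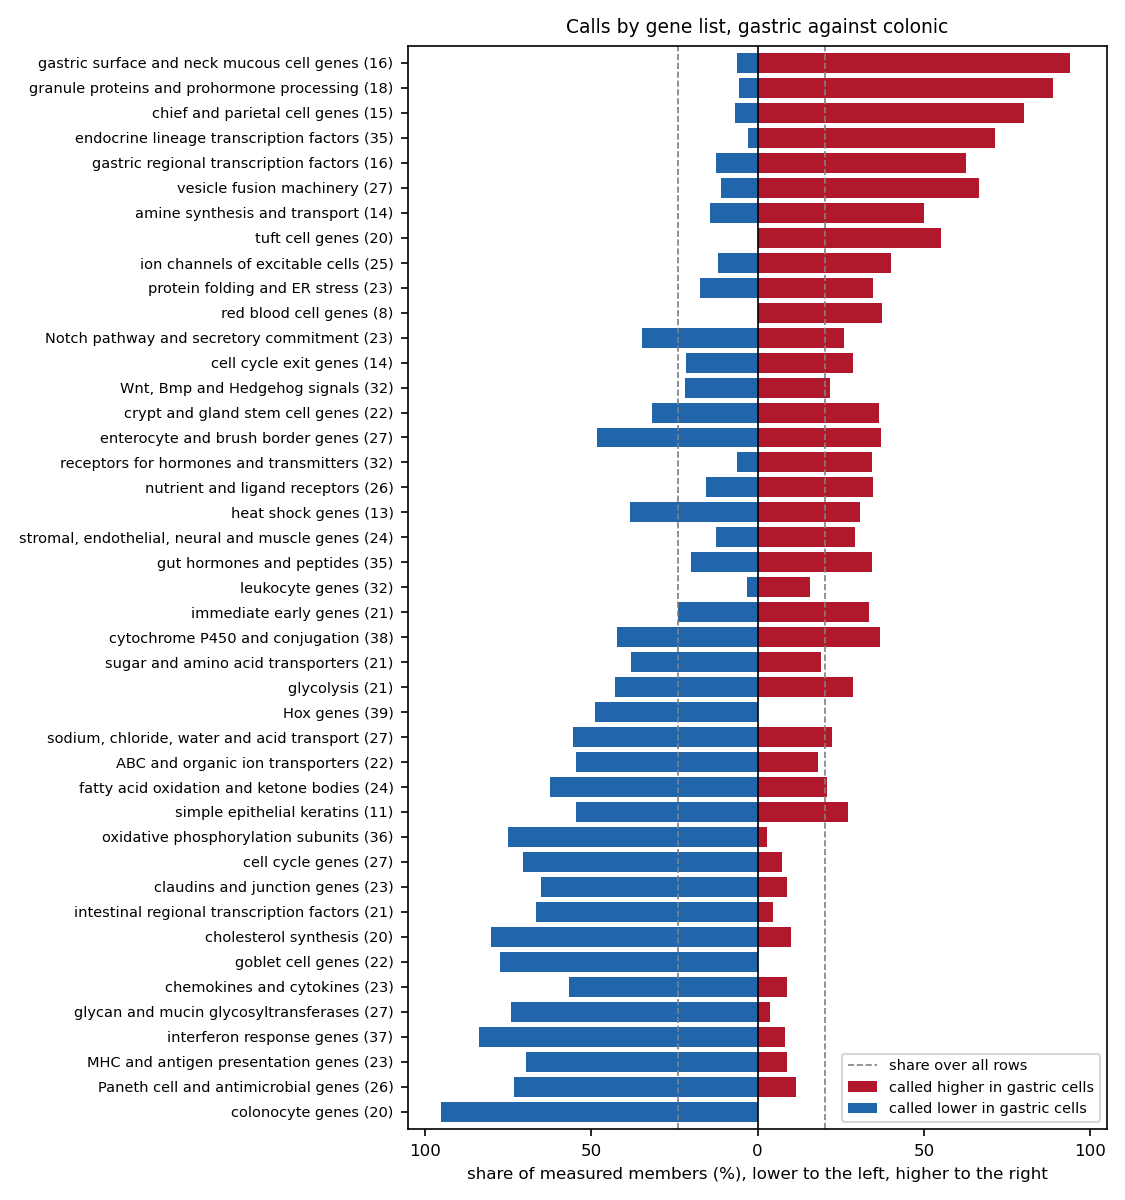
Share of measured members of 43 gene lists (number of genes in parentheses) called higher (red, to the right) or lower (blue, to the left) in gastric than in colonic cells, in the order of the lists' median differences, with dashed lines at the shares over all rows (20.2% and 23.9%). Gastric mucous, granule, chief and parietal, and endocrine lineage genes lie at one end, and colonocyte, Paneth, antigen presentation and interferon genes at the other.

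Outside the lists, Spp1 (osteopontin), a secreted matrix protein gene, read 13.95, 13.94 and 13.93 in gastric arrays, against 6.51 and 6.65 in colonic arrays and was at least 140-fold higher in the gastric arrays (adjusted p = 1.24e-19). Mup2, a major urinary protein gene with near-identical copies, was at least 78.6-fold higher, with gastric arrays at 13.29, 13.00 and 13.05 and colonic ones at background. The rows LOC100041004 and LOC100046120, which matched no named gene, were at least 312-fold and 230-fold higher. At the other end, Spink1, a trypsin inhibitor gene, read 7.63, 7.59 and 7.55 in gastric arrays, against 14.84 and 14.64 in colonic arrays and was 142-fold lower (adjusted p = 1.52e-18). Ly6a (Sca-1), a surface protein gene that interferon induces, read 7.39, 7.29 and 7.31 in gastric arrays, against 12.84 and 12.92 in colonic arrays (46.8-fold lower). The RIKEN row 1810065E05Rik was at least 98.6-fold lower, with gastric arrays at background. LOC100044289 and LOC100044291, which matched no named gene, were at least 151-fold and 38.7-fold lower, and the defensin-named rows DEFCR4 and DEFCR-RS10 93.6-fold and at least 51.5-fold. AY761185 was at least 44.7-fold lower.

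Duodenal arrays place some of these levels between, or outside, those of stomach and colon. The 3 comparisons share arrays, so the values are given side by side. For Chga the means were 13.13 in gastric, 10.07 in duodenal and 8.40 in colonic arrays, and duodenal cells were 3.18-fold above colonic ones (adjusted p = 3.92e-12). For Neurog3 they were 13.03 in gastric, 9.74 in duodenal and 8.73 in colonic arrays, and duodenal cells were 2.02-fold above colonic ones (adjusted p = 1.47e-09). The interferon gene Ifi47 stood at 10.12 in duodenal arrays, 7.37-fold above gastric ones (adjusted p = 3.94e-15), and colonic arrays at 10.41. The class II gene H2-Aa read 6.91 in duodenal arrays, below the gastric 7.59 (1.6-fold, adjusted p = 2.6e-06), and colonic arrays at 10.58. St6gal1 and Fut2, a fucosyltransferase gene of mucous secretions, were lowest in duodenal arrays, at 7.30 and 7.80, against 9.45 and 10.61 in gastric and 11.78 and 11.41 in colonic arrays. Duodenal cells differed from gastric cells by 4.42-fold and 7.06-fold for these genes (adjusted p = 3.06e-14 and 6.47e-16). Onecut2 stood at 9.30 in gastric and 10.30 in duodenal cells and at background in colonic cells (6.53), and Sox21 and Nkx6-1 were at background in duodenal cells, at 6.77 and 6.67.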

How the data were processed

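RNA of sorted GFP-positive cells was measured on Illumina bead arrays, and the authors deposited 1 table of log2 values, 1 row per gene symbol, for 8 arrays. GenomeStudio, lumi and limma are named, without version or role, per the submitters' processing notes; background correction and the joining of several probes into a row are not given in the sources used here. Base 2 was taken for the log from the range of the deposited values, and the columns have nearly equal distributions, as after quantile normalization. Row names were matched to RefSeq (GRCm38.p6, names only): 14305 of 18131 were current symbols, 2660 older symbols, 245 older symbols of a gene with another row, and 921 had no match or several.

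A model with a mean per segment was fitted to all 8 arrays, so that the segments share 1 estimate of spread, with limma 3.58.1 in R 4.3.3 (moderated test, Benjamini-Hochberg over all rows, called at an adjusted p under 0.05); it was tested on simulated data. The number of arrays limits the precision. A ratio against a group at background was computed against the background level. Alternatives were a second quantile normalization, median centring, dim rows left out, trend and robust variance, array weights, the 5 arrays alone, a replicate block, a stricter threshold of 0.01 and each array left out. Same-numbered arrays did not deviate together (correlations of deviations of -0.014 to 0.013), so the numbers were not taken to pair arrays.

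Named genes are the 12 highest and 12 lowest rows that were called and did not overlap, up to 8 called members with the largest difference in each of 43 lists, called members against the sign of a list's median, all measured hormone genes, and 9 fixed genes, of which Epcam was not analysed here. List members at background or not called may also be named. Members and lists were chosen with earlier results of these data known. Chosen after their values were seen were Aqp8, B2m, Cadps, Ciita, Fev, Foxa1, Foxa2, Fut2, Gata4, H2-K1, Hoxa13, Hoxb13, Hoxd13, Irf7, Irf9, Lgr5, Lyz1, Mmp7, Muc6, Neurod1, Nkx2-2, Nkx6-1, Pax4, Pcsk1, Ptprn, Reg3b, Scnn1b, Slc26a3, Spink4, Stat2, Tff3, Tnf and Vgf, and the Cdh1 check. Results for some genes are not reported here.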

Additional observations from a re-analysis of the deposited data

How the results depend on the processing

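The count of 7993 called rows was 8099 with the 5 arrays alone, 8057 with array weights, 8016 with trend and robust variance, 7901 with dim rows left out, 6723 at an adjusted p under 0.01, and 7135 to 8160 without 1 array. Rows called higher numbered 3292 to 3727, rows called lower 3843 to 4433 and rows at least 2-fold apart 1332 to 1355 without 1 array. With the replicate number as a block 7830 rows were called, 3580 higher and 4250 lower, and 1351 at least 2-fold; the arrays share only a number. Of 6730 values of the 451 named genes under 15 alternatives, 6628 kept direction and call, 97 values of 35 genes lost the call, 5 values of 2 genes gained it and 0 reversed. Of 1290 list counts, 33 in 12 lists moved by over 1.5 times, all counts of few genes; the cause was not tested. Values near the background level of 6.81 and at or near the top of the scale limit what ratios can show. Gastric Gast, Ghrl, Sst and Tff2 values are among the latter, and 7529 rows were at background in both groups.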
